A study of Solanum lycopersicum with 12 samples.

Results

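The genes described here are 100 tomato (Solanum lycopersicum) gene models whose leaf transcript level was higher in salinity, lower in heat and close to control when salinity and heat were applied together. They were chosen from the group means of the same 12 libraries in which they are described. Counts were divided by median-of-ratios size factors, and the 17055 gene models with a mean normalized count of at least 50 were kept, out of 34075 in the table. Each group mean was then set against control as a difference of log2 (mean normalized count + 10). A total of 1091 gene models had a salinity difference above 0.5, a heat difference below -0.5 and a combination difference within 0.5 of control. The 100 with the largest value of whichever was smaller, the salinity increase or the heat decrease, were taken, and rank refers to that order.

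Leaf tissue was sampled under 4 treatments with 3 libraries each, namely salinity, heat, salinity plus heat (the combination) and control. The study asked how both stresses act jointly on the metabolism of tomato plants. The salt dose, the temperature, the duration, the cultivar and how many plants were pooled for each library are not given in the sources used here, so the spread between libraries of a group may be technical. Total counts lay between 56281339 and 78370751 per library.

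Salt in the soil withholds water from the plant and loads its leaves with sodium, and leaves commonly close their stomata under it. Heat unfolds proteins, sets off the heat shock response and commonly opens stomata, which cools the leaf by transpiration. Some responses to both stresses applied together are therefore opposed, and neither single stress shows what the pair will do. The table gives identifiers without gene names, and none of the 100 identifiers matched the RefSeq gene table (0 matches), so no function is assigned to any gene below and the leaf label was not checked against marker genes. In whole leaves, fewer cells of a type and less RNA per cell cannot be told apart.

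All values of the 4 groups entered the choice of the genes. Their salinity, heat and combination differences are therefore a description, and no test is attached to them. The salinity difference had a median of 1.25 on the log2 scale and ranged from 0.98 to 4.66. The heat difference had a median of -1.27 and ranged from -2.81 to -0.98. In 92 genes the salinity increase was above 1 on the log2 scale, and in 93 the heat decrease was larger than 1. Over the set the sizes were nearly balanced, since the salinity increase was the larger in 53 genes and the heat decrease in the others. Within the allowed window the combination difference had a median of -0.18, and it was below 0 in 73 genes and above 0 in 27. That sign depends on the scaling, since the median combination log2 fold change of the 100 genes in edgeR was -0.16 with TMM and 0.13 with total counts, where the median of all tested gene models was 0.03 and 0.32. With size factors, the combination lay closer to heat than to salinity in 76 genes. That count was not recomputed with total counts, and no share over all kept gene models was taken. Nothing is therefore read from it.

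**Figure D1:**
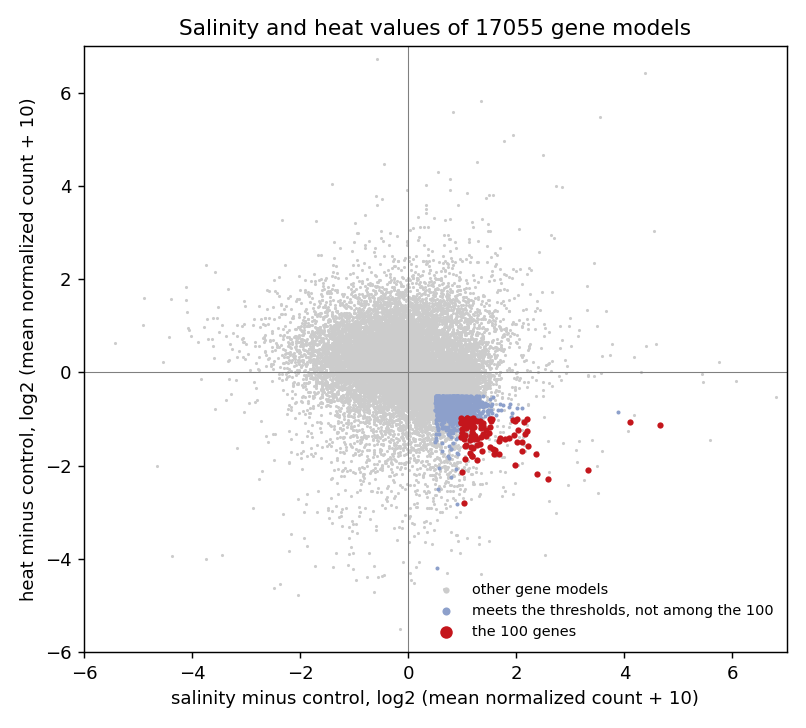
Each point is a gene model with a mean normalized count of at least 50, placed by its salinity minus control (horizontal) and heat minus control (vertical) difference of log2 (mean normalized count + 10). The 100 genes (red) lie at salinity differences from 0.98 to 4.66 and heat differences from -2.81 to -0.98, and the blue points are the rest of the 1091 gene models that met the thresholds.

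The limit of 100 fell within a continuous range. The genes of ranks 98, 99 and 100 had salinity differences of 0.98, 1.08 and 0.98 and heat differences of -0.98, -0.98 and -1.39 on the log2 scale. The first 3 gene models left out had salinity differences of 1.27, 0.97 and 0.97 and heat differences of -0.97, -1.01 and -1.23.

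The first gene in the order was Solyc05g007770.3.1, on chromosome 5 by its identifier. Its normalized counts were 4087, 3794 and 6884 in salinity, 156, 137 and 183 in heat, 547, 1123 and 708 in the combination, and 780, 440 and 1206 in control. Salinity libraries were all above and heat libraries all below the control libraries, and the combination libraries lay inside the control range. The salinity mean of 4922 ± 1706 was 6.08 times the control mean of 809 ± 384 (SD, n = 3 each). The heat mean was 159 ± 23.2, and the control mean was 5.10 times that. In edgeR's quasi-likelihood model the log2 fold change was 2.59 (SE 0.37) for salinity and -2.25 (SE 0.38) for heat, each against control.

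The second was Solyc09g082810.3.1, on chromosome 9, a far more abundant transcript. It had 81585, 25853 and 19465 normalized counts in salinity, 1611, 1467 and 2271 in heat, 7342, 6612 and 4882 in the combination, and 4675, 3279 and 16393 in control. A single library set much of the salinity mean and another much of the control mean, yet salinity did not overlap control, and neither did heat. The edgeR log2 fold change was 2.36 (SE 0.60) for salinity and -2.09 (SE 0.60) for heat. Without control replicate 3 the heat value was -1.07 and was no longer called. It was also not called without heat replicate 1 (-2.03) or without heat replicate 2 (-1.97).

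Other genes had wider spreads. The gene of rank 3 had 1788, 1253 and 3577 normalized counts in salinity, 75.5, 4.84 and 46 in heat, 46, 529 and 136 in the combination, and 213, 58.5 and 365 in control. Its combination libraries spanned more than the whole control range, so that a mean near control described none of them well. The largest salinity difference (4.66) belonged to the gene of rank 50, with 1601, 1650 and 6447 normalized counts in salinity, 60.4, 9.69 and 75.7 in heat, 16.3, 237 and 7.33 in the combination, and 164, 34.3 and 157 in control. In the gene of rank 61, the next largest at 4.11, salinity replicate 1 had 54044 normalized counts and the other two salinity libraries 2363 and 2787, against 779, 970 and 1650 in control. Its high salinity mean thus rested on that library, although all 3 salinity libraries were above control.

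Abundance varied widely. Mean normalized counts over all libraries ran from 50.7 to 310520, with a median of 757, compared with 684 over all kept gene models. Of the 100 genes, 8 had a mean above 10000 and 13 a mean under 100. Counts were rarely limiting, since 93 genes had at least 10 counts in every library and only the gene of rank 10 had a value under 3 counts. That gene was detected with 426, 75.1 and 21.7 normalized counts in salinity, 6.79, 0 and 2.97 in heat, 49.0, 22.3 and 1.83 in the combination, and 24.8, 9.07 and 54.9 in control, and its salinity and control libraries overlapped. At these library totals 3 counts corresponded to between 0.0383 and 0.0533 CPM.

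Together the 100 genes took 1.83%, 1.61% and 1.69% of all counts in the salinity libraries and 0.452%, 0.366% and 0.595% in the heat libraries. They took 1.03%, 1.05% and 1.01% in the combination and 1.02%, 0.553% and 0.817% in control. The most abundant gene, of rank 60, made up 42.0% of their summed mean normalized counts. It had 402102, 736391 and 539290 normalized counts in salinity, 97642, 85770 and 167645 in heat, 334641, 309090 and 320378 in the combination, and 449478, 102213 and 181595 in control. Its control libraries were the most scattered of the 4 groups and overlapped both salinity and heat. With this gene left out, the share was between 0.934% and 1.27% in salinity, 0.219% and 0.308% in heat, 0.431% and 0.592% in the combination, and 0.410% and 0.590% in control. Salinity stayed above and heat below the control range for the sum without it.

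Seen library by library, the salinity and heat differences were broadly shared. All 3 salinity libraries were above all 3 control libraries in 93 of the 100 genes, against 31.3% of all kept gene models. All 3 heat libraries were below all control libraries in 92 genes, against 29.2%. All 3 salinity libraries were above all 3 heat libraries in each of the 100 genes, against 36.9% of all kept gene models. Combination libraries were all above control in 1 gene (23.1% of kept gene models) and all below it in 1 gene (24.2%). Set against the single stresses, they were all below salinity in 90 genes (27.4%) and all above heat in 76 (31.7%). Salinity above control, heat below it and a combination overlapping it all held in 84 genes (8.23%). The choice of the genes used these groups, so nothing is read from these shares.

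The same holds for the calls made by edgeR (quasi-likelihood, Benjamini-Hochberg adjustment) over 20717 tested gene models, at an adjusted p under 0.05. Salinity was called higher than control in 95 of the 100 genes, against 23.6% of all tested gene models. Heat was called lower than control in 86, against 15.2%. Both calls were made in 84 genes, against 4.86% of all tested gene models. The combination was called different from control in 0 genes, against 32.5%, where 2 had an unadjusted p under 0.05 and the DESeq2 Wald test also called 0. The combination was called lower than salinity in 88 genes, against 20.1%, and higher than heat in 70, against 17%. Without control replicate 3 the calls for heat were 53, against 9.81% of all tested gene models, and without heat replicate 2 they were 57, against 9.17%. The combination was called higher than heat in 42 genes without heat replicate 2, against 8.36%, and in 45 without combination replicate 2, against 11.5%. Without combination replicate 2 the combination was called different from control in 12 genes, against 29.8%. The share of all tested gene models called thus fell in each of these refits. Among the 100 genes the calls fell with it for heat and for the combination over heat. For the combination against control they rose instead, from 0 to 12.

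The choice can be kept apart from the reading by leaving out all 4 libraries of a replicate number, applying the whole procedure to the other 8 libraries and reading the genes so chosen in the 4 libraries left out. The numbers serve only as names here. The 100 genes chosen without replicate number 1, 2 or 3 shared 59, 33 and 48 genes with the 100 described above. Read in the held-out libraries, the salinity difference had a median of 1.14, 1.43 and 0.69 on the log2 scale for numbers 1, 2 and 3, where the median of all kept gene models was 0.01, 0.01 and 0.05. The held-out heat difference had a median of -1.0, -1.0 and -1.50, where all kept gene models had 0.00, 0.04 and 0.02. Salinity was above control and heat below it in 92, 92 and 89 of the 100 genes, against 26.2%, 31.7% and 29.8% of all kept gene models. The opposed directions of the single stresses were therefore found again in libraries that had no part in the choice.

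With size factors, the combination was within 0.5 of control in the held-out libraries at about the background share or below it. In the held-out libraries the combination difference had a median of -0.37, 0.51 and -0.87 on the log2 scale for numbers 1, 2 and 3, compared with -0.14, -0.22 and -0.08 in the libraries that chose the genes. It stayed within 0.5 of control in 54, 41 and 24 of the 100 genes, against 51.5%, 46.9% and 53.1% of all kept gene models. The first 2 counts are near the background and the third is below it. All kept gene models had held-out medians of -0.05, -0.06 and -0.02 and, as given below, less spread between libraries. A share near theirs therefore cannot tell whether the nearness recurred. With total counts in place of size factors the held-out medians were smaller, at -0.18, 0.29 and -0.65. Then 54, 50 and 38 genes stayed within 0.5, against 46.3%, 47.1% and 43.7% of all kept gene models. The first 2 of these counts were above the background and the third below it. With size factors, all thresholds were met again by 40, 38 and 12 genes, against 3.81%, 7.69% and 2.76%. Only 1 library per group is read each time, all 3 differences share its control library, and these values carry no test. In these data the label of a cancelled response describes group means, with single libraries on either side of control.

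**Figure D2:**
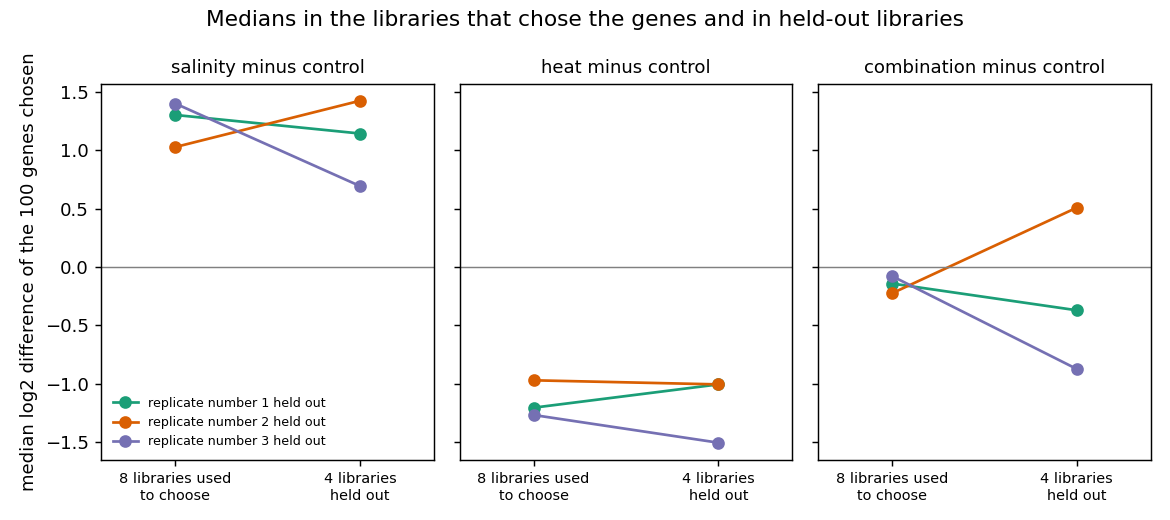
Median log2 difference from control (vertical axis) of the 100 genes chosen when a replicate number was held out, in the 8 libraries used to choose them and in the 4 libraries held out, for salinity, heat and the combination. Held-out medians stayed above 0 for salinity (0.69 to 1.43) and below 0 for heat (-1.50 to -1.0), whereas those of the combination fell on both sides of 0 (-0.87 to 0.51).

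The 100 genes moved up and down together among libraries of the same group. Relative to the control mean, their median was 1.14, 1.49 and 1.08 on the log2 scale in salinity replicates 1, 2 and 3, and -1.21, -1.58 and -1.08 in the heat replicates. It was -0.52, 0.26 and -0.40 in the combination and -0.18, -0.29 and 0.34 in control. Combination replicate 2 and control replicate 3 thus stood above the other libraries of their groups. Of the 100 genes, 88 had their highest combination value in combination replicate 2, against 40.5% of all kept gene models. In control, 89 had their highest value in replicate 3, against 38.7%. In heat, 70 had their lowest value in replicate 2, against 34.3%, and in salinity 57 had their highest value in replicate 2, against 37.9%.

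**Figure D3:**
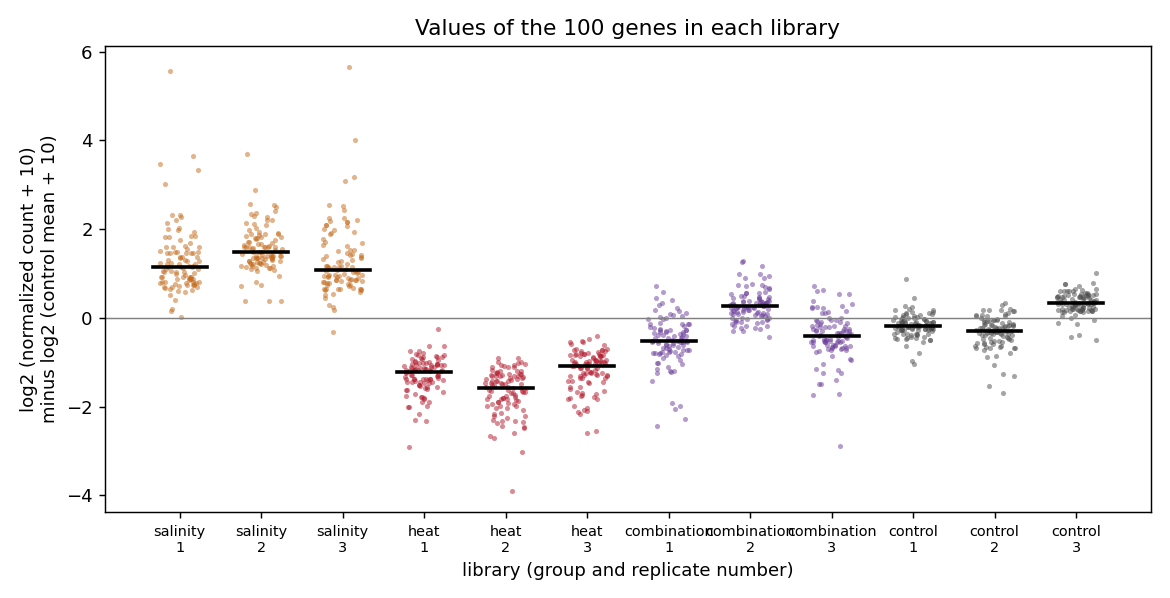
Each point is 1 of the 100 genes in 1 library, as log2 (normalized count + 10) minus log2 (control mean + 10), and black bars are medians. Salinity medians lie between 1.08 and 1.49 and heat medians between -1.58 and -1.08, while combination medians run from -0.52 to 0.26 and control medians from -0.29 to 0.34.

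How near the combination was to control depended on which libraries were paired. Over the 9 pairings of a combination library with a control library, the median difference of the 100 genes ran from -0.88 (combination replicate 1 against control replicate 3) to 0.52 (combination replicate 2 against control replicate 2). The number of genes within 0.5 of each other ran from 22 to 79 over these pairings. It was highest between combination replicate 2 and control replicate 3, the 2 libraries with the highest medians of their groups, where the median difference was -0.07.

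The displacement of these libraries was not limited to the 100 genes. It was looked for in the 14969 kept gene models that met the thresholds of neither this pattern nor its reverse, lower in salinity and higher in heat. Across those gene models, the departure of control replicate 3 from the other two control libraries correlated with the salinity minus heat difference at r = 0.60. The correlation was 0.54 for combination replicate 2, and it was -0.49 and -0.22 for control replicates 1 and 2 and -0.55 and -0.21 for combination replicates 1 and 3. Departures within a group cancel out for each gene model, so the values of a group are not independent of one another. Gene models are not independent replicates, and all values share the same 12 libraries and their scaling. The part of this displacement in the combination values of the 100 genes was not tested.

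The closest counterpart is the set of 100 gene models with the reverse pattern, chosen by the mirrored thresholds from 995 that met them. These moved within groups in the opposite sense. Against the mean of their own group, the 100 genes had a median deviation of 0.46 in combination replicate 2 and 0.37 in control replicate 3, and the reverse set -0.51 and -0.52. In heat replicate 2 the 100 genes stood at -0.27 and the reverse set at 0.44. The median spread between libraries, as a coefficient of variation, was 25.6% in salinity, 23.9% in heat, 33.5% in the combination and 28.6% in control for the 100 genes. For the reverse set it was 25.6%, 31.2%, 37.9% and 33.2% in the same groups, and for all kept gene models 18.3%, 14.2%, 17.3% and 15.5%.

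**Figure D4:**
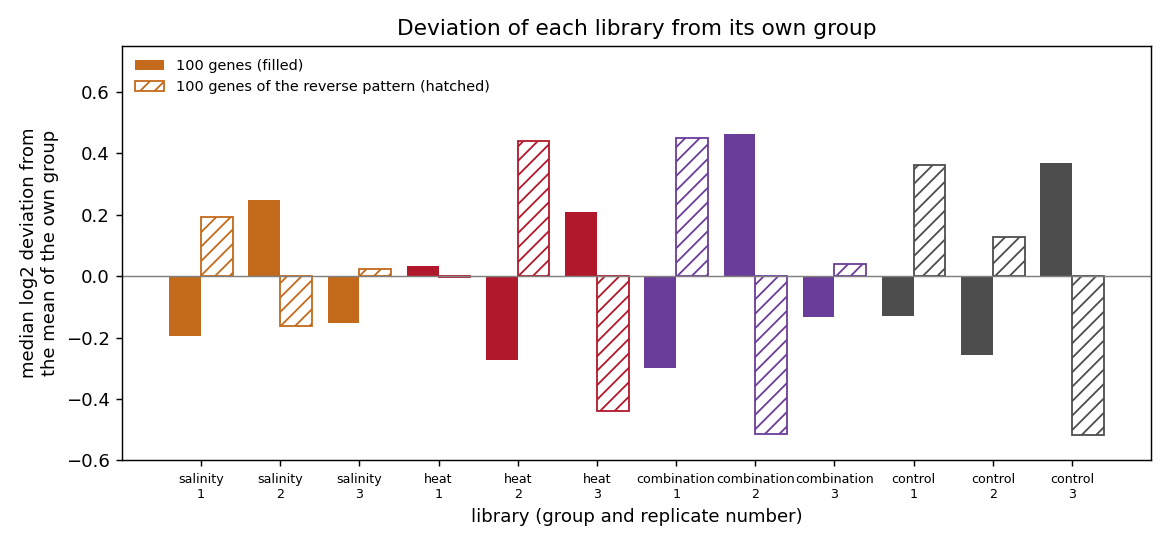
Bars give the median log2 deviation of each library from the mean of its own group, filled for the 100 genes and hatched for the 100 gene models of the reverse pattern. Combination replicate 2 (0.46 against -0.51) and control replicate 3 (0.37 against -0.52) deviate in opposite senses in the sets.

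If salinity and heat acted independently, their log2 changes would add. The sum of the salinity and heat differences had a median of 0.02 over the 100 genes and ran from -1.78 to 3.52. The observed combination value was below that sum in 69 genes and within 0.5 of it in 68. Neither count was taken over all kept gene models, and nothing is read from the first. The observed value less the sum had a median of -0.24 and quartiles of -0.51 and 0.11. Over all kept gene models its median was -0.04 and its quartiles were -0.42 and 0.38, so most of them also lay within 0.5. The interaction in edgeR, the log2 change of the combination less those of both single stresses, had a median of -0.22 and was called in 2 of the 100 genes, against 8.94% of all tested gene models. Salinity, heat and combination differences were all bounded by the choice, so this share is a description. Without combination replicate 2 the interaction was called in 5 genes, against 9.97%. With control replicate 3 and combination replicate 2 both left out it was called in 10, against 9.81%, which is the background share.

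Both genes with an interaction call are named because of it, after their values were seen. Solyc06g068620.3.1, of rank 77 and on chromosome 6, had 4738, 2651 and 2538 normalized counts in salinity, 206, 190 and 269 in heat, 1686, 2160 and 2500 in the combination, and 1563, 1262 and 2023 in control. Its heat difference of -2.81 was the lowest of the 100 genes with the offset of 10, although in edgeR the gene of rank 10 was lower (-3.01 against -2.77). Its combination libraries reached the level of control. Its mean was 222 ± 42.1 in heat and 2116 ± 409 in the combination, against 1616 ± 383 in control (SD, n = 3 each).

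Solyc05g010450.1.1, of rank 90 and on chromosome 5, had 3826, 5974 and 4381 normalized counts in salinity, 583, 485 and 535 in heat, 2420, 3998 and 3465 in the combination, and 2288, 2157 and 2666 in control. Heat libraries were far below all others, and the combination overlapped both salinity and control. In both genes salinity added to heat gave a larger increase than salinity alone. The edgeR log2 fold change of the combination over heat was 3.20 (SE 0.28) for the first and 2.57 (SE 0.21) for the second, and that of salinity over control 1.01 (SE 0.26) and 0.97 (SE 0.20).

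**Figure D5:**
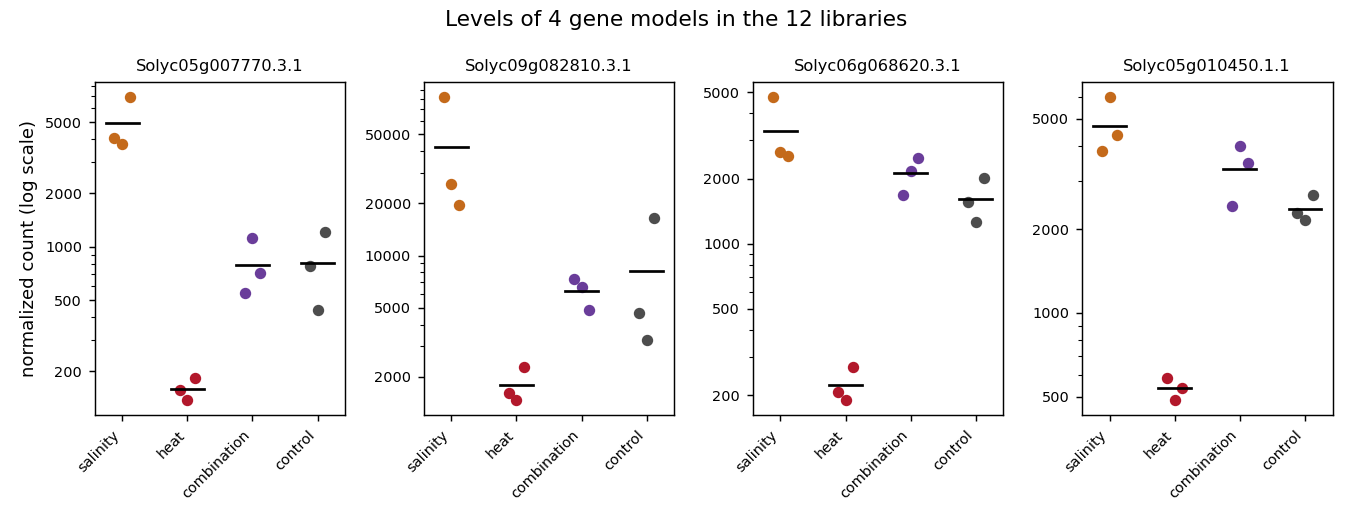
Normalized counts (log scale) of 4 of the 100 genes in the 12 libraries, with black bars for group means. In Solyc05g007770.3.1 and Solyc09g082810.3.1 salinity lies above and heat below control, and in Solyc06g068620.3.1 and Solyc05g010450.1.1 heat means of 222 and 534 stand apart from combination means of 2116 and 3295.

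Tomato gene identifiers carry the chromosome number and run along the chromosome, which gives the position of the genes without the choice having used it. The 100 genes were spread over all 12 chromosomes, apart from 1 gene whose identifier carries chromosome number 0, with 14 on chromosome 1, 12 on chromosome 5, 11 each on chromosomes 9 and 12 and 4 on chromosome 6. The share of all kept gene models on these chromosomes was 12.7%, 6.76%, 7.22%, 6.60% and 8.72%. Taking each gene with the next of the 100 along its chromosome, 3 pairs lay within 5 kept gene models of each other. They involved the genes of ranks 4, 67 and 73 on chromosome 1 and those of ranks 13 and 65 on chromosome 11. Pairs that were not successive were not counted, and no background count was taken. Whether such close genes share reads as similar copies was not tested.

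The nearest kept gene model on either side of the 100 genes gave 195 neighbours outside the set. These had a median salinity difference of 0.19, a heat difference of -0.02 and a combination difference of 0.03 on the log2 scale, compared with 0.05, 0.02 and -0.04 over all kept gene models. Of the neighbours, 20 (10.3%) met the thresholds themselves, compared with 6.40% of all kept gene models. Among the 953 gene models within 5 steps on either side the share was 7.56%. Both sets of neighbours leave out the 100 genes, whereas the 6.40% counts them and is therefore slightly high as a background.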

How the data were processed

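The authors deposited raw counts, in whole numbers, for 34075 gene models in 12 leaf libraries. Trimmomatic 0.33 and Bowtie2 2.3.4 are named in the submitters' processing notes, and the name of the table refers to a tomato annotation release. The counting program, strandedness and the handling of multiply mapped reads are not given in the sources used here, so counts of similar, overlapping or antisense gene models are uncertain. Replicates were compared by a chi-square statistic per degree of freedom, which was at least 50.4 in every pair of a group, so no library was a duplicate.

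Counts were tested with edgeR 4.0.16 in R 4.3.3 (TMM scaling, filterByExpr, quasi-likelihood F-tests with 1 coefficient per treatment, Benjamini-Hochberg adjustment over all tested gene models). All 100 genes passed the filter. An SE was derived from the log2 fold change and its F statistic (absolute change over the root of F), and p-values measure only the spread between these libraries. Results were recomputed with other scalings, offsets and filters, the DESeq2 1.42.0 Wald test, the replicate number as a block, and each library left out. The members and lists were chosen with earlier results of these data known. Gene lists and promoter motifs had been planned but were not used, because identifiers had no names. At most 2 identifiers were to be printed in that case, the first 2 in rank order, and 2 more were named for an interaction call.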

Additional observations from a re-analysis of the deposited data

Results flagged for a closer look

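An interaction between salinity and heat was called in 2 of the 100 genes by edgeR's quasi-likelihood model, against 8.94% of all tested gene models. Both came up because the log2 change with salinity was larger in heated than in unheated plants. The interaction was 2.18 on the log2 scale (SE 0.37) in Solyc06g068620.3.1 and 1.59 (SE 0.29) in Solyc05g010450.1.1. The values are a description, because the salinity, heat and combination differences that make up the interaction chose and bounded the genes, and both were named after the call was seen. With each library left out in turn they ranged from 1.99 to 2.53 and from 1.46 to 1.78, in refits that share the libraries that chose the genes.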

How the results depend on the processing

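Total counts without scaling factors left 301 gene models meeting the thresholds and 60 of the 100 genes chosen. The median heat log2 fold change was then -0.96, against -1.27. The combination was called different from control in 3 genes, against 33.6% of all tested gene models. The held-out salinity median of replicate number 2 moved to 0.97 and the held-out heat median of number 3 to -1.18. Total counts also moved the median of all tested gene models to 0.44 for heat and 0.32 for the combination, against 0.14 and 0.03 with TMM. They turned that of the 100 genes for the combination to 0.13, against -0.16. Relative to all tested gene models the 100 genes thus stayed lower in both scalings. The cause of the other changes was not tested. Leaving out control replicate 3 and combination replicate 2 together, an alternative chosen after seeing the data, left 54 of the 100 genes chosen, with 1 called in the combination against control and 10 interaction calls, against 26.4% and 9.81% of all tested gene models. With each library left out in turn, between 56 and 93 of the 100 genes were still chosen, 58 to 100 still met the thresholds, and 887 to 1305 gene models met them. Over the same refits the calls were 77 to 97 for salinity and 53 to 93 for heat against control, where 17.2% to 23.7% and 9.17% to 21.5% of all tested gene models were called. They were 0 to 12 for the combination against control (22.3% to 34.9%), 74 to 92 against salinity (13.7% to 22%) and 42 to 77 against heat (8.36% to 18.5%), and 2 to 5 for the interaction (3.89% to 9.97%). Medians ran from 1.19 to 1.46 for salinity, -1.40 to -1.06 for heat and -0.49 to 0.06 for the combination. The DESeq2 Wald test called 95, 93, 0, 90, 87 and 2 genes in the comparisons in the same order, against 21.1%, 16.5%, 29.1%, 19%, 17.5% and 12.8%. These shares are of all gene models with a count in any library, without the edgeR filter, so they are not on the same base as the edgeR shares. With the replicate number as a block 90, 86, 0, 84, 69 and 2 were called, against 22.6%, 14.3%, 30.8%, 19.1%, 15.2% and 6.26%. Deviations of the 18 same-numbered pairs correlated between -0.480 and 0.350 across gene models. Their mean correlation was -0.011, against 0.005 for pairs of different number, and 0 libraries correlated best with their own number in every other group. These values show no consistent shared shift by number, but cannot tell whether same-numbered libraries were handled together.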
